A study of Mus musculus with 6 samples.

Results

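The nuclear genes for the subunits of respiratory complexes II, III, IV and V were followed in RNA-seq libraries of mouse articular cartilage. The members were the genes of the deposited table named Sdha, Sdhb, Sdhc or Sdhd, together with those whose names begin with Uqcr, Cox4i, Cox5, Cox6, Cox7, Cox8 or Atp5, leaving out names that contain -ps. This gave 47 of 34709 genes, with 4 genes in complex II, 8 in complex III, 18 in complex IV and 17 in complex V. Of these, 46 had a mean of at least 0.5 FPKM (fragments per kilobase of transcript, adjusted for library size) and are described below. The remaining member, the testis isoform Cox7b2, was listed at 0 in 4 libraries and at 0.0844 and 0.0821 FPKM in wildtype replicates 2 and 3.

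The libraries came from cartilage of knockout (KO) mice and of their male wildtype littermates on a C57BL/6J background, at 18 months of age, with 3 libraries labelled for each group. The labels name no treatment for either group. The sources used here do not say whether a library held tissue of 1 animal or of several, nor which dissected surfaces entered it. KO replicates 2 and 3 differed far less from each other than any other pair of libraries did, so their mean was counted as 1 sample, which left 2 KO and 3 wildtype samples. P-values therefore measure only the spread between these samples.

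Total counts lay between 52268311 and 63331135 per library. The libraries did not hold chondrocyte RNA alone. Of 11 chondrocyte markers, 9 reached a mean of 0.5 FPKM, with Prg4 highest and Matn3 and Col9a1 below that level. The summed level of the 11 was 764 to 1678 FPKM in the KO libraries and 736 to 987 FPKM in the wildtype libraries. Prg4, at 1034, 436 and 441 FPKM in KO and 402, 581 and 494 FPKM in wildtype, made up most of each sum. The markers did not all rank the libraries alike. Col2a1 was at 16.0, 12.4 and 12.6 FPKM in KO and 21.3, 20.3 and 13.9 FPKM in wildtype. The summed level of 10 erythroid markers, of which 9 were in the table, was far higher and did not overlap, at 24953 to 60709 FPKM in KO and 71710 to 108566 FPKM in wildtype. The 10 neutrophil and precursor markers summed to 49435 to 60741 FPKM in KO and 25947 to 42450 FPKM in wildtype. The part of these cell types in the results below was not tested, and in whole tissue fewer cells of a type cannot be told apart from less RNA per cell.

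The respiratory chain passes electrons from NADH and succinate to oxygen and stores the energy as a proton gradient across the inner mitochondrial membrane. Complex II (succinate dehydrogenase) feeds electrons from the citric acid cycle into ubiquinone, complex III (the cytochrome bc1 complex) hands them to cytochrome c, complex IV (cytochrome c oxidase) reduces oxygen, and complex V (ATP synthase) uses the gradient to make ATP. All subunits of complex II are nuclear, whereas complexes III, IV and V also hold subunits made from mitochondrial DNA. Several subunits of complex IV have alternative isoforms made in heart, skeletal muscle, lung or testis, and cartilage itself is a tissue without vessels whose cells are known to rely largely on glycolysis.

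The subunit genes were among the more highly expressed genes of the tissue. Their median level over the libraries was 43.2 FPKM, against 4.90 FPKM over the 15373 genes that passed the same limit, and 40 of the 46 members reached 10 FPKM, as did 30.2% of those genes. Mean levels ran from 19.8 to 75.2 FPKM in complex II, from 20.9 to 81.6 FPKM in complex III, from 1.57 to 148 FPKM in complex IV and from 9.31 to 159 FPKM in complex V. The lowest levels of complex IV belonged to tissue-restricted isoforms.

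**Figure D1:**
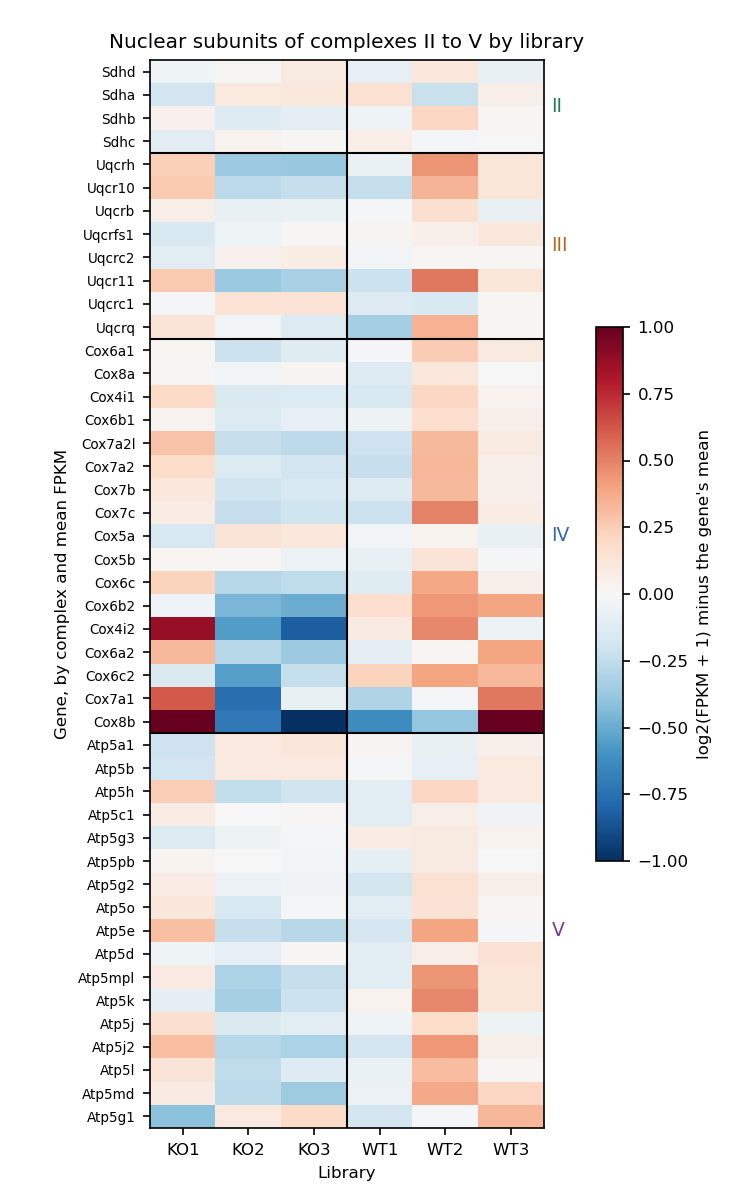
Level of the 46 members in each library (columns KO1 to KO3 and WT1 to WT3, where WT is wildtype), as log2(FPKM + 1) minus the gene's mean over the 6 libraries, with genes in rows by complex (II to V from top to bottom) and by falling mean FPKM. Many rows are red in KO1 and WT2 and blue in KO2, KO3 and WT1, so that libraries of 1 group differ more than the groups do.

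The question of the comparison was whether loss of the gene changed the expression of these subunits. With edgeR (quasi-likelihood, p adjusted by Benjamini-Hochberg over all 15373 genes), 0 of the 46 members passed an adjusted p of 0.05, and 0% of all tested genes did. The lowest adjusted p of a member was 0.313. Without adjustment 1 member, the testis-enriched isoform Cox6b2, had p below 0.05, which is 2.17% of the members beside 13.7% of all tested genes (6.07% for genes lower in KO). Of the members, 32 (69.6%) had a negative and 14 a positive log2 difference, beside 52.5% negative among all tested genes. This is a split that became 23 and 23 with no filter on low values, 39 and 3 at a minimum of 5 FPKM and 17 and 29 without wildtype replicate 2. The median log2 difference of the members was -0.04 beside -0.02 for all tested genes. DESeq2 and limma on the same samples also called 0 members, while DESeq2 called 6.07% of all genes for which it gave an adjusted p.

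When the 6 libraries were entered as labelled, edgeR again called 0 members at an adjusted p of 0.05, beside 3.71% of all tested genes. The members with an unadjusted p below 0.05 were then 3, Cox6b2, Cox6c2 and Atp5k, or 6.52% beside 22.2% of all tested genes. The intervals, per gene and unadjusted, give the differences that remain compatible with these samples. The median half-width of the 95% interval was 0.47 log2 units, and the interval lay within 1 log2 unit of 0 in 41 of 46 members: all 4 of complex II, all 8 of complex III, 12 of 17 of complex IV and all 17 of complex V. In 42 of 46 members (91.3%) the fitted difference was smaller than the range of the 3 wildtype libraries on the log2 scale, as it was in 71.4% of all tested genes.

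**Figure D2:**
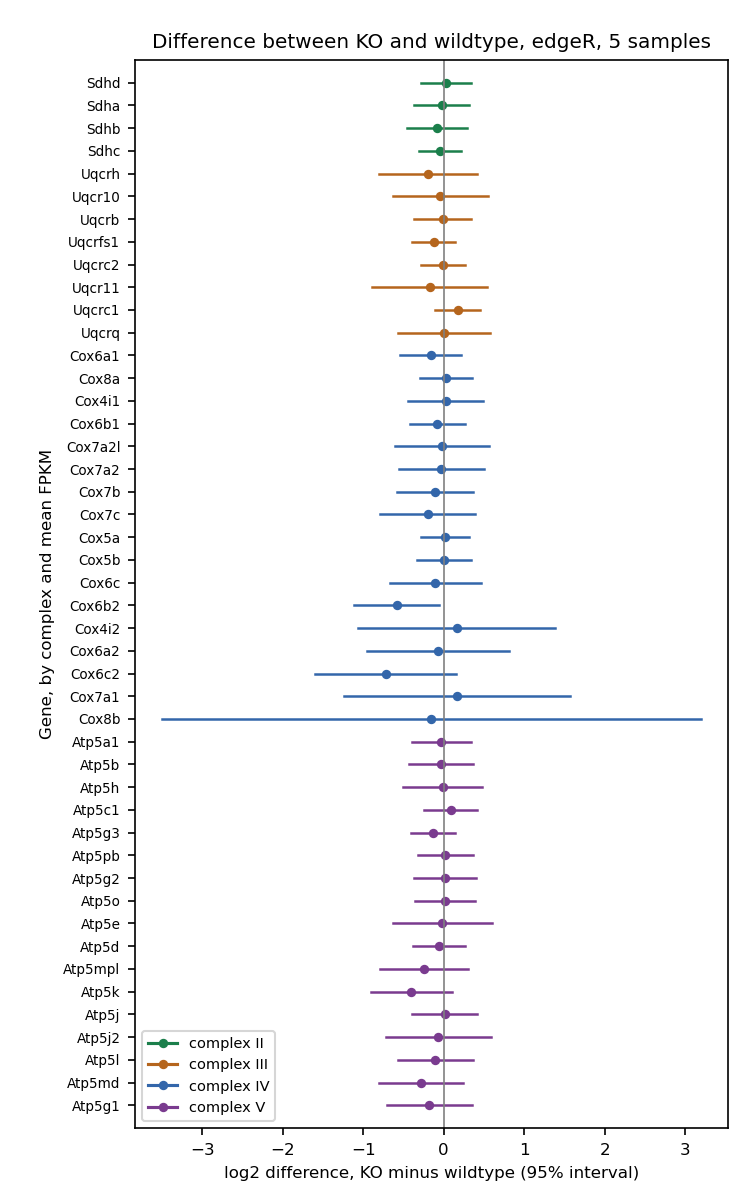
Fitted log2 difference (KO minus wildtype, 2 and 3 samples, edgeR) of each member as a point with its 95% interval as a line, coloured by complex. All intervals but that of Cox6b2 cross 0, and the widest is that of Cox8b, with a standard error of 1.42.

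In complex II, the fitted log2 differences lay between -0.08 and 0.03. Sdha, the flavoprotein that oxidises succinate, was at 38.7, 47.4 and 47.5 FPKM in KO replicates 1 to 3 and at 49.2, 37.7 and 46.1 FPKM in wildtype replicates 1 to 3, a log2 difference of -0.02 ± 0.15 (SE). The values of both groups covered the same range, with KO replicate 1 and wildtype replicate 2 the lowest. Sdhb, the iron-sulfur subunit, was at 30.2, 26.7 and 27.4 FPKM in KO and 28.4, 34.0 and 29.7 FPKM in wildtype, a log2 difference of -0.08 ± 0.16 (SE).

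The membrane anchors of complex II bind ubiquinone. Sdhc was at 18.4, 20.4 and 19.97 FPKM in KO and 20.9, 19.6 and 19.8 FPKM in wildtype, a log2 difference of -0.04 with a 95% interval from -0.30 to 0.22. Sdhd, the highest member of the complex, was at 72.7, 75.6 and 79.8 FPKM in KO and 70.9, 80.7 and 71.3 FPKM in wildtype, a log2 difference of 0.03 with an interval from -0.28 to 0.34. The groups overlapped in all 4 genes of the complex, and the summed level of the complex was 160 to 175 FPKM in KO and 167 to 172 FPKM in wildtype.

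In complex III, Uqcrc1, a core subunit, ranked first (edgeR, unadjusted p = 0.194, adjusted p = 0.618) and was at 31.3, 34.8 and 34.8 FPKM in KO and 28.7, 28.3 and 31.99 FPKM in wildtype. Its KO values lay at or above most wildtype values, but KO replicate 1 was below wildtype replicate 3, and the log2 difference was 0.17 ± 0.12 (SE). Uqcrc2, the other core subunit, was at 44.6, 49.9 and 51.1 FPKM in KO and 47.4, 48.9 and 48.8 FPKM in wildtype, so that the wildtype libraries lay inside the KO range, with a log2 difference of -0.01 ± 0.12 (SE).

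Uqcrfs1, the Rieske iron-sulfur protein that takes electrons from ubiquinol, was at 45.4, 49.03 and 51.0 FPKM in KO and 51.3, 52.2 and 54.3 FPKM in wildtype. The groups did not overlap, yet KO replicate 3 and wildtype replicate 1 were 51.0 and 51.3 FPKM, and the log2 difference of -0.12 ± 0.11 (SE) did not pass the test (edgeR, adjusted p = 0.737).

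Several small accessory subunits of complex III differed between libraries of the same group, while Uqcrb, another of them, lay between 59.5 and 70.3 FPKM in all 6. Uqcrh, the hinge protein near the cytochrome c site and the highest member of the complex, was at 94.6, 61.7 and 61.2 FPKM in KO and 76.3, 108.9 and 87.2 FPKM in wildtype. KO replicate 1 lay above 2 of the 3 wildtype libraries, and the log2 difference of -0.19 ± 0.26 (SE) was -0.60 without KO replicate 1 and -0.01 without wildtype replicate 2. Uqcr11, the smallest subunit, was at 44.2, 28.1 and 29.1 FPKM in KO and 31.6, 53.4 and 40.1 FPKM in wildtype, so that the 3 wildtype libraries alone spanned 0.76 log2 units while the fitted difference was -0.18. Uqcrq, a ubiquinone-binding accessory subunit and the lowest member, was at 22.8, 20.3 and 18.8 FPKM in KO and 16.1, 26.6 and 21.0 FPKM in wildtype, a log2 difference of 0.01 ± 0.24 (SE).

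Complex IV held the largest fitted differences, in a pair of minor isoforms. Cox6b2, the testis-enriched partner of Cox6b1 on chromosome 7 (4751792 to 4753094, GRCm38), was at 15.5, 11.3 and 10.95 FPKM in KO and 17.97, 21.8 and 21.2 FPKM in wildtype. All KO libraries were below all wildtype libraries, and the log2 difference was -0.58 with a 95% interval from -1.11 to -0.06 (edgeR, unadjusted p = 0.0336, adjusted p = 0.313). The unadjusted p rose to 0.0930 without wildtype replicate 2 (log2 difference -0.50), to 0.0897 without wildtype replicate 3 (-0.55) and to 0.179 without KO replicates 2 and 3 (-0.32), the last a setting added after the data were seen. It fell to 0.00583 without KO replicate 1 (-0.91) and to 0.00946 with the 6 libraries as labelled (-0.68), and was 0.0190 with DESeq2 and 0.0128 with limma on log2(FPKM + 1).

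The level of Cox6b1, the isoform made in all tissues, was 104.6, 93.1 and 96.5 FPKM in KO and 98.7, 114.7 and 106.6 FPKM in wildtype, a log2 difference of -0.08 ± 0.15 (SE). Cox6b2 thus made up 12.9%, 10.8% and 10.2% of the summed FPKM of both isoforms in KO and 15.4%, 16.0% and 16.6% in wildtype. The shares did not overlap between the groups, and they were not tested separately, since they rest on the same values. Both isoforms sit at the interface of the complex IV dimer.

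Cox6c2, a single-exon gene of 231 bases on chromosome 12 (56373593 to 56373823), was at 2.69, 1.79 and 2.46 FPKM in KO and 3.77, 4.39 and 4.11 FPKM in wildtype. Its log2 difference of -0.72 ± 0.37 (SE) did not pass the test (edgeR, unadjusted p = 0.0941, adjusted p = 0.471), and it rested on 30 to 62 counts per library. How reads were divided between Cox6c2 and Cox6c is not stated, so this value is uncertain. Cox6c, the isoform with introns, was at 32.1, 22.2 and 22.8 FPKM in KO and 25.1, 35.9 and 28.3 FPKM in wildtype, with overlap between the groups and a log2 difference of -0.10 ± 0.24 (SE).

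The main isoforms of complex IV were the most abundant members of the complex. Cox6a1 was highest, at 149.5, 126.7 and 135.2 FPKM in KO and 145.0, 175.6 and 156.6 FPKM in wildtype (log2 difference -0.16 ± 0.16, SE). Cox4i1, which helps to regulate the enzyme, was at 149.4, 118.1 and 118.3 FPKM in KO and 117.0, 150.3 and 133.9 FPKM in wildtype (log2 difference 0.02 ± 0.20, SE). Cox8a was at 140.5, 137.0 and 142.2 FPKM in KO and 127.5, 149.9 and 139.4 FPKM in wildtype (log2 difference 0.03 ± 0.14, SE). In each of these genes the KO and wildtype libraries overlapped. Cox5a and Cox5b, which bind the matrix side of the catalytic core, differed by 0.02 and 0.00 log2 units. Cox7a2, Cox7b and Cox7c, small subunits that each cross the membrane once, differed by -0.03, -0.11 and -0.20 log2 units, with standard errors of 0.22, 0.20 and 0.25.

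The isoforms restricted to muscle varied between libraries of the same group. Cox8b, made in heart, skeletal muscle and brown fat, was at 3.29, 0.213 and 0 FPKM in KO and 0.287, 0.528 and 5.11 FPKM in wildtype. KO replicate 1 and wildtype replicate 3 were thus high and the other 4 libraries low, in both groups alike. The summed level of 10 skeletal muscle markers showed the same libraries apart, at 172, 5.83 and 4.92 FPKM in KO and 40.2, 64.5 and 318 FPKM in wildtype, and Cox8b and the marker sum ranked the 6 libraries in the same order. The 4 brown adipocyte markers summed to at most 0.269 FPKM in any library.

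Cox6a2, the heart and skeletal muscle partner of Cox6a1, was at 4.86, 2.83 and 2.64 FPKM in KO and 3.39, 3.73 and 5.15 FPKM in wildtype. It too ranked the libraries as the muscle markers did. Its levels spanned only 1.95-fold, however, while the marker sum ran from 4.92 to 318 FPKM. Cox7a1, the muscle partner of Cox7a2, was at 2.94, 0.529 and 1.45 FPKM in KO and 1.09, 1.56 and 2.73 FPKM in wildtype, again highest in KO replicate 1 and wildtype replicate 3. Fitted log2 differences were -0.15 ± 1.42 (SE) for Cox8b, -0.07 ± 0.37 for Cox6a2 and 0.16 ± 0.60 for Cox7a1. Without wildtype replicate 3 the value of Cox8b became 2.06 and that of Cox6a2 0.13, while that of Cox7a1 became -0.89 without KO replicate 1, so that single libraries set the direction in these genes. The part of muscle RNA in these levels was not tested beyond the values given.

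Cox4i2, the isoform of Cox4i1 known from lung and from low oxygen, followed another order. It was at 12.2, 3.93 and 3.09 FPKM in KO and 6.69, 9.10 and 5.98 FPKM in wildtype, with KO replicate 1 highest, the other KO libraries lowest and wildtype between them. Its share of the summed FPKM of both Cox4i isoforms was 7.58%, 3.22% and 2.54% in KO and 5.41%, 5.71% and 4.28% in wildtype. The log2 difference of 0.16 ± 0.52 (SE) became -1.08 without KO replicate 1 and -0.15 with the 6 libraries as labelled.

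**Figure D3:**
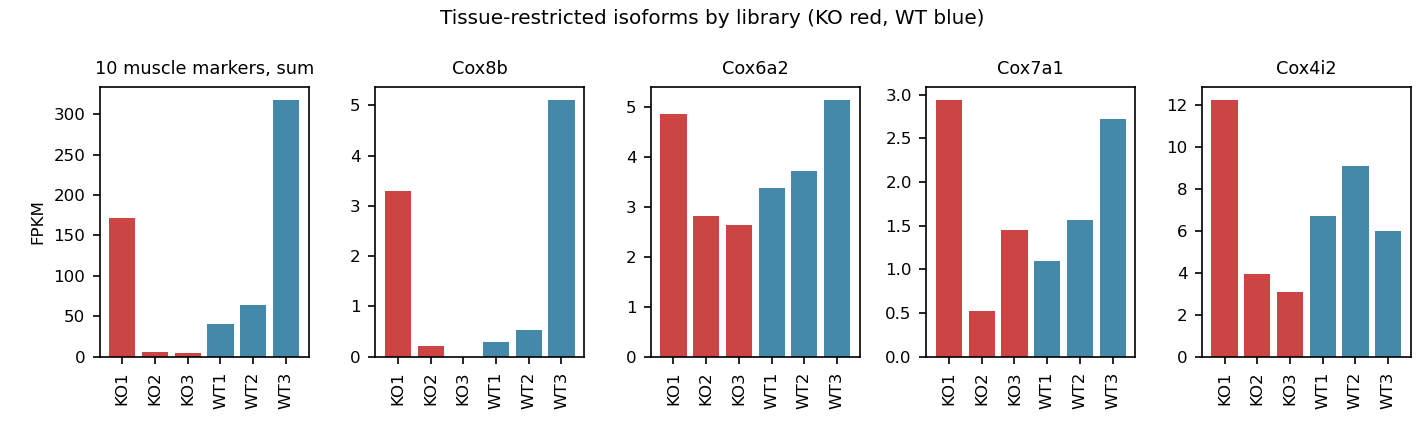
FPKM of each library (bars from 0, KO red and wildtype blue) for the sum of 10 skeletal muscle markers and for Cox8b, Cox6a2, Cox7a1 and Cox4i2, each panel on its own axis. KO1 and WT3 stand above the other libraries in the marker sum (172 and 318 FPKM) and in the 3 muscle isoforms, whereas Cox4i2 is highest in KO1 and WT2.

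In complex V, the catalytic subunits were the most abundant of all members. Atp5a1, the alpha subunit, was at 137.5, 169.9 and 171.7 FPKM in KO and 161.5, 150.5 and 164.1 FPKM in wildtype, a log2 difference of -0.03 ± 0.16 (SE). Atp5b, the beta subunit that carries the active sites, was at 131.5, 160.7 and 160.5 FPKM in KO and 149.2, 141.7 and 161.0 FPKM in wildtype, a log2 difference of -0.03 ± 0.17 (SE). In both genes KO replicate 1 was the lowest library and wildtype replicate 2 the next, the reverse of their place in the small subunits.

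Atp5k, the small membrane subunit e that links ATP synthase dimers, ranked first in complex V by its p (edgeR, unadjusted p = 0.0988, adjusted p = 0.477). It was at 30.5, 25.7 and 28.0 FPKM in KO and 33.5, 46.0 and 35.6 FPKM in wildtype, so that the groups did not overlap, with a log2 difference of -0.40 and a 95% interval from -0.90 to 0.10. Without wildtype replicate 2 the difference was -0.22. Atp5md, another small membrane subunit of the dimer interface, was at 14.8, 11.5 and 10.7 FPKM in KO and 13.4, 18.5 and 16.3 FPKM in wildtype (log2 difference -0.29 ± 0.22, SE), where KO replicate 1 lay above wildtype replicate 1. This difference was -0.57 without KO replicate 1 and -0.14 without wildtype replicate 2.

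Subunit c, which forms the rotating ring, is made from 3 genes with the same mature protein. Atp5g3 was at 50.9, 54.1 and 55.6 FPKM in KO and 58.9, 59.5 and 57.5 FPKM in wildtype, without overlap, and its log2 difference was -0.13 ± 0.12 (SE; edgeR, adjusted p = 0.715). Atp5g2 was at 48.4, 44.03 and 44.7 FPKM in KO and 40.3, 51.1 and 47.8 FPKM in wildtype, a log2 difference of 0.02 ± 0.16 (SE). Atp5g1, the lowest member of complex V, was at 6.64, 9.86 and 10.6 FPKM in KO and 7.89, 9.10 and 11.8 FPKM in wildtype, a log2 difference of -0.18 ± 0.23 (SE). Of the summed FPKM of the 3 genes, Atp5g3 made up 49.1% ± 1.44 (SD, n = 2) in KO and 51.3% ± 3.25 (SD, n = 3) in wildtype, Atp5g2 43.1% ± 3.61 and 40.4% ± 2.56, and Atp5g1 7.80% ± 2.17 and 8.34% ± 1.49. For each of the 3 genes the shares of the KO and wildtype libraries overlapped, and the differences in share were not tested.

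Over all 46 members, 5 had KO libraries that did not overlap the wildtype libraries in FPKM: Uqcrfs1, Cox6b2, Cox6c2, Atp5k and Atp5g3. This is 10.9% of the members, beside 25% of all tested genes. All 5 were lower in KO, beside 13.7% of all tested genes that did not overlap and were lower in KO. Both background shares were above that of the members, and nothing is read from the count.

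**Figure D4:**
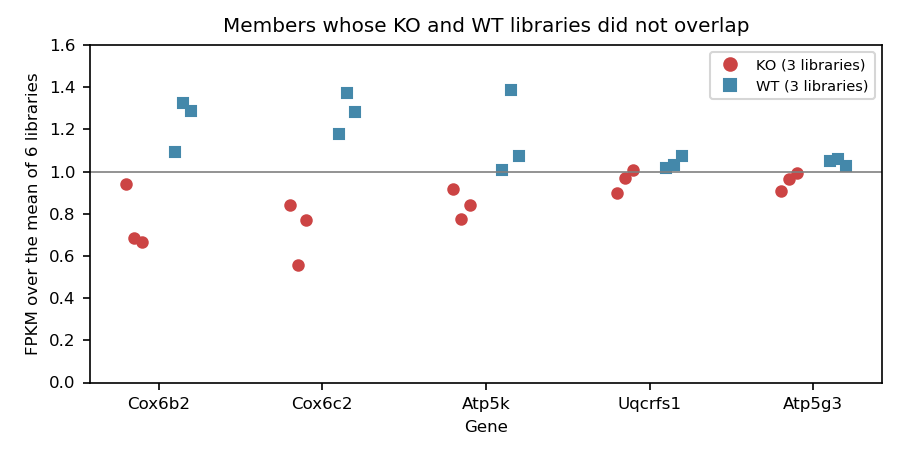
FPKM of each library divided by the gene's mean over the 6 libraries, for the 5 members whose KO (red circles) and wildtype (blue squares) libraries did not overlap. The gap between the groups is wide in Cox6b2 and Cox6c2 and narrow in Uqcrfs1, where 51.0 FPKM in KO meets 51.3 FPKM in wildtype.

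A difference between libraries ran through both groups. Of the 46 members, 34 (73.9%) were highest in KO replicate 1 or wildtype replicate 2, as were 23.6% of all tested genes. The members differ from most genes in length. Their longest annotated transcript had a median of 735.5 bases against 2604 bases for all tested genes, and 29 of the 46 were shorter than 1000 bases. Of these 29 short members, 26 (89.7%) were highest in KO replicate 1 or wildtype replicate 2, against 51.0% of all tested genes under 1000 bases, and 8 of the 17 longer members were.

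Within the wildtype group, the median log2 ratio of replicate 2 to replicate 1, on FPKM + 1, was 0.31 in short members, with 29 of 29 above 0, and 0.18 in long members, with 12 of 17 above 0. Over all tested genes the same ratio was 0.14 in the 2744 genes under 1000 bases and -0.11 in the 12611 longer genes. Within the KO group, the ratio of replicate 1 to the mean of replicates 2 and 3 was 0.34 in short members and -0.09 in long members, and 0.15 and -0.12 in the short and long genes of the whole table. Across the 46 members, Spearman's rho between this ratio and transcript length was -0.44 for the wildtype pair and -0.59 for the KO pair, beside -0.38 and -0.36 across 15355 tested genes. These values describe libraries that share 1 normalisation, and genes are not independent replicates. In these pairs the ratio fell with length, in the members and in all tested genes. Short and long members had higher median ratios than the short and long genes of the whole table. For wildtype replicate 3 over replicate 1, rho was -0.23 in the members and -0.19 in all tested genes. For KO replicate 2 over replicate 3 it was 0.19 and 0.03. The part of length in the member levels was not tested further.

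**Figure D5:**
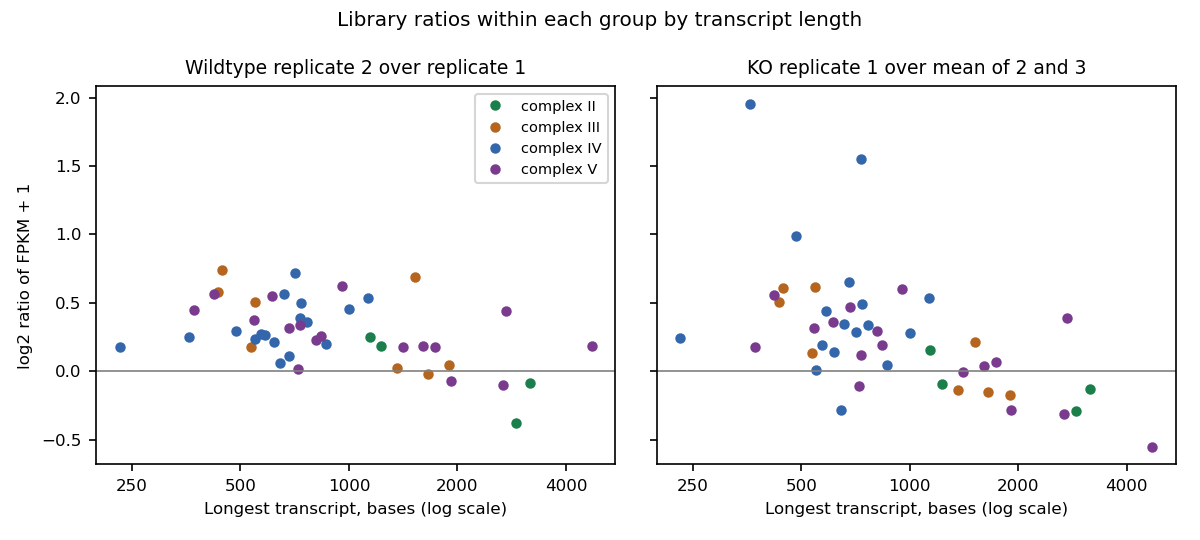
Log2 ratio of FPKM + 1 between libraries of 1 group against the longest annotated transcript in bases (log scale), 1 point per member, coloured by complex. On the left wildtype replicate 2 is set over replicate 1 and on the right KO replicate 1 over the mean of KO replicates 2 and 3. In both panels the members under 1000 bases lie mostly above 0. Of the 17 longer members, 12 lie above 0 on the left and 7 on the right, among them Atp5md (2733 bases) at 0.44 and 0.39.

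Summed levels of complexes III and IV ranked the libraries alike, with wildtype replicate 2 highest, KO replicate 1 next and KO replicate 2 lowest. Complex IV summed to 1029, 855 and 871 FPKM in KO and 879, 1138 and 997 FPKM in wildtype, and complex III to 440, 367 and 370 FPKM in KO and 378, 485 and 426 FPKM in wildtype. Complex V was highest in wildtype replicates 2 and 3 and lowest in wildtype replicate 1 and KO replicate 2, at 939, 898 and 916 FPKM in KO and 898, 1019 and 975 FPKM in wildtype. In complexes III, IV and V KO replicate 1 lay inside the wildtype range. Complex II, summed above, had KO replicate 1 lowest and KO replicate 3 highest. The medians of the fitted log2 differences were -0.03 for complex II, -0.03 for complex III, -0.07 for complex IV and -0.03 for complex V, beside -0.02 for all tested genes. Single libraries moved those of complexes III, IV and V in both directions: they were -0.15, -0.38 and -0.14 without KO replicate 1, -0.17, -0.18 and -0.15 without wildtype replicate 1, and 0.08, 0.08 and 0.05 without wildtype replicate 2.

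The promoters of the members are shown because many of these genes are known to share control by nuclear respiratory factors. RefSeq promoters (GRCm38.p6, 250 bases before to 50 after the start) were matched by symbol to 35 of the 46 members, and motifs were searched as exact letters on both strands. The ETS motif CCGGAAG, the core bound by the GABP factor, was present in 13 of 35 members (37.1%) and in 9.93% of the 27025 genes with a promoter. The NRF1 motif GCATGCGC was present in 7 members (20%) and in 3.05% of all genes, and its palindromic form is matched on both strands by overlapping letters. The YY1 motif AAGATGGC and the TATA motif TATAAA were present in 3 members each (8.57%), beside 3.19% and 15.7% of all genes. The background was all genes with a promoter, without the limit of 0.5 FPKM set for the members, so the shares are not strictly alike. A match of letters is a description and no proof of a bound site.

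Parts of 5 promoters upstream of the start are printed to set ubiquitous subunits with motifs beside tissue-restricted isoforms, with motif letters in capitals. They are read 5′ to 3′ on the minus strand, on which all 5 genes lie, and they stop before the gene as the deposited table bounds it. Uqcr11, whose level varied widely between libraries, holds an ETS motif 66 bases before the RefSeq start (chr10:80406831-80407071). Its full promoter also has an NRF1 match that is not within the printed part.
Uqcr11: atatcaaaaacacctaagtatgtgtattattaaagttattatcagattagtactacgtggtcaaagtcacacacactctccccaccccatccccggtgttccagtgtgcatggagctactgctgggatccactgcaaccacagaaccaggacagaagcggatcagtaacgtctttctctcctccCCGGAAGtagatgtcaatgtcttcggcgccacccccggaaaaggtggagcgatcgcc
Cox6a1, the most abundant member of complex IV, holds the palindromic NRF1 motif 162 bases before its start (chr5:115348982-115349208, a window that an exon of Gm42903 overlaps). Its full promoter also has an ETS match that is not within the printed part.
Cox6a1: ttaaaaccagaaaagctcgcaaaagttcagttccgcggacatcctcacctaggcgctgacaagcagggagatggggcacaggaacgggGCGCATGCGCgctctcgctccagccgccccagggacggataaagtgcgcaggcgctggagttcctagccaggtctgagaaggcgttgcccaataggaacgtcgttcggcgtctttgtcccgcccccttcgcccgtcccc
Atp5l, subunit g of ATP synthase, holds an NRF1, an ETS and a TATA motif 240, 212 and 122 bases before its start (chr9:44920743-44920992, overlapped by an exon of Gm30934).
Atp5l: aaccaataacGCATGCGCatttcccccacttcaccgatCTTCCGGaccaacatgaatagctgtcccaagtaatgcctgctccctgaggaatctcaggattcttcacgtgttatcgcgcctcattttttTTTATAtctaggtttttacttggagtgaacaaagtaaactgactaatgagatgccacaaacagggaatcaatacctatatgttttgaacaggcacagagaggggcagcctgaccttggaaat
The windows of Cox6b2 (chr7:4753095-4753225) and Cox8b (chr7:140900447-140900696) hold none of the 4 motifs, although Cox8b has a TATA match after its start, outside the printed part.
Cox6b2: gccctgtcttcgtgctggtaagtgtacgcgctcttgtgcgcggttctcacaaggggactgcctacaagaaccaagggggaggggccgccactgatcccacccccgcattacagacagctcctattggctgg
Cox8b: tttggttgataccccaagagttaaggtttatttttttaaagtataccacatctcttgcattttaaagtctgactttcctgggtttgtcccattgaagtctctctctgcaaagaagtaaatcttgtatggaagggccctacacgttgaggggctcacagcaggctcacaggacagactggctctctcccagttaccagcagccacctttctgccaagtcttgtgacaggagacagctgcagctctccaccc

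Uqcr11 and Cox6a1, which hold motifs of this kind, were at 28.1 to 53.4 FPKM and 126.7 to 175.6 FPKM over the libraries, and Atp5l, which holds them too, at 13.3 to 20.1 FPKM. Cox6b2, with no motif in the printed window, was at 10.95 to 21.8 FPKM, a range that overlapped that of Atp5l. Cox8b, with none upstream of its start, was at or below 5.11 FPKM in every library. Levels between genes are compared here per length, and 5 promoters do not show that the motifs set these levels.

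Other genes of the same pathway gave a like picture. Cyc1, the haem subunit of complex III, Cycs, which encodes cytochrome c, and Ndufa4, a complex IV subunit named after complex I, had log2 differences of -0.16, 0.09 and -0.19, and 0 of the 3 passed the test. Of 35 assembly factors 33 were tested, of which 20 had a negative and 13 a positive log2 difference and 0 had an unadjusted p below 0.05. Of 12 regulators 11 were tested, of which 4 had a negative and 7 a positive log2 difference (median 0.04). None of the regulators had an unadjusted p below 0.05. The most negative was Tfam, which packages mitochondrial DNA. It was at 6.82, 6.54 and 6.33 FPKM in KO and 9.08, 7.97 and 7.84 FPKM in wildtype (log2 difference -0.30, edgeR, unadjusted p = 0.0648). The KO libraries of Tfam were all below the wildtype libraries, as they were in 13.7% of all tested genes, and nothing is read from it.

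The 6 mitochondrially encoded subunits of complexes III, IV and V had log2 differences between -0.19 and -0.04, and 0 of 6 passed the test. Of 37 nuclear complex I subunits, 0 had an adjusted p below 0.05. Only Ndufs6b (log2 difference -1.46) and Ndufv3 (0.35) had an unadjusted p below 0.05, as did 13.7% of all tested genes. Ndufs6b was low, at 0.425, 0.695 and 0.441 FPKM in KO and 0.727, 1.86 and 1.55 FPKM in wildtype. Atpif1, the inhibitor of ATP synthase that acts when the proton gradient fails, was at 127.7, 75.9 and 77.8 FPKM in KO and 104.6, 155.5 and 147.6 FPKM in wildtype. KO replicate 1 lay above wildtype replicate 1, and the log2 difference was -0.38 with a 95% interval from -1.07 to 0.30 (edgeR, adjusted p = 0.656), with -0.86 without KO replicate 1, -0.53 with the 6 libraries as labelled and -0.02 without KO replicates 2 and 3.

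Counting could blur some members with their neighbours. In the GENCODE annotation of the same build, 19 of the 46 members overlap another gene and 11 overlap a protein-coding gene, among them Atp5j with Gabpa, Atp5a1 with Haus1, Cox6a2 with Itgad and Cox6c with Vps13b. The libraries were strand-specific, but the sources used here do not state whether counting used strand. Pseudogenes can share reads with their parents too. Of 8 names left out for -ps, 5 reached 0.5 FPKM, and Cox5b-ps was at 17.7 to 24.4 FPKM while Cox5b was at 29.5 to 34.1 FPKM.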

How the data were processed

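Articular cartilage of KO and wildtype mice was profiled by poly(A) RNA-seq, and the titles of the samples gave the group and number of each library. The knocked-out gene is not reported here. Per the labels, strand-specific libraries with molecular identifiers were sequenced in pairs on an Illumina NovaSeq, and the submitters' processing notes name cutadapt 1.9, HISAT2 2.0.4, UMI-tools, StringTie 1.3.4d, DESeq2 and edgeR without further settings. The authors deposited 1 table of FPKM values and estimated counts for 34709 genes with GRCm38 positions. The deposited counts were whole numbers whose low values piled up at 4 (6596 values, against 4170 at 3 and 2332 at 5), so 1 count was not taken as 1 fragment. All per-sample columns were used (0 left out).

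The members and lists were chosen with earlier results of these data known. For each pair of libraries the squared difference of scaled counts was divided by its Poisson value. Its median ratio was 5.67 to 6.11 for KO replicates 2 and 3 over genes of 200 to 50000 counts, and at least 13.1 in the other 14 pairs, so these libraries were averaged, rounded and counted as 1 sample. Genes whose mean reached 0.5 FPKM were tested with edgeR 4.0.16 (R 4.3.3, TMM scaling, quasi-likelihood, two-sided) and adjusted over all 15373 genes, and the procedure was checked on simulated data. The F statistic of each log2 difference gave its standard error, and its degrees of freedom the 95% interval.

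Alternatives were the 6 libraries as labelled, median-of-ratios scaling, DESeq2 1.42.0, limma 3.58.1 on log2(FPKM + 1) or log2(FPKM + 0.1), no filter, a minimum of 5 FPKM, counts divided by 4, a replicate block and each library left out. The setting without KO replicates 2 and 3 was added after the data were seen. Where a single KO sample was left, it was assumed to vary like the wildtype samples. Genes named in the text were all of complex II, the 3 smallest unadjusted p-values of each other complex, alternative isoforms, core and catalytic subunits with Atpif1, and the highest and lowest member of each complex, together with members called in any other fit (0 genes). Uqcr11, Uqcrb, Cox6c, Cox5a, Cox5b, Cox7c, Atp5l, Tfam, Ndufs6b and Ndufv3 were named after their values were seen.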

Additional observations from a re-analysis of the deposited data

How the results depend on the processing

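The count of members at an adjusted p below 0.05 was 0 in the edgeR, DESeq2 and limma fits under each alternative run. Of all 15373 tested genes, 2106 had an unadjusted p below 0.05 in the main fit, and 3408 with the 6 libraries as labelled. With limma 1800 did at a pseudocount of 1 and 1826 at 0.1, and with edgeR 1882 without wildtype replicate 2 and 1384 without wildtype replicate 3. The count of members at an unadjusted p below 0.05 was 1, and became 3 with the 6 libraries as labelled and 2 with limma at either pseudocount. It ranged from 0 (without wildtype replicate 2 or 3) to 4 (without KO replicate 1) when single libraries were left out. Without KO replicate 1 a single KO sample was left, so nothing is read from the count in that fit. The median of complex II became 0.0062 with no filter and -0.080 at a minimum of 5 FPKM, and those of complexes III and V were 0.0026 and 0.0089 with no filter. The medians of complexes III and IV ranged from -0.17 to 0.082 and from -0.38 to 0.078 with single libraries left out, and were 0.14 and 0.093 without KO replicates 2 and 3.

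Between the groups, deviations from the group means correlated at -0.21, -0.18 and 0.001 for replicate numbers 1 to 3. These values cannot decide whether replicate numbers paired the samples. The KO libraries averaged in the main test entered this check separately, and no correlation between libraries of different numbers is given for comparison. The replicate block on the 6 libraries as labelled gave 0 members at an adjusted p below 0.05. It gave 1 at an unadjusted p below 0.05 (2809 of all genes), and a median of -0.21 for complex IV.

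Of 29 named genes, none was called under any alternative run, but many log2 differences changed sign. Those that did so were not all near 0 in the main fit. They included Uqcrh at -0.19, Atp5g1 at -0.18, Cox4i2 and Cox7a1 at 0.16 and Cox8b at -0.15. With the 6 libraries as labelled the reversed values were Sdha 0.0082, Uqcrq -0.047, Atp5a1 0.0063, Cox4i1 -0.053, Cox4i2 -0.15, Cox7a1 -0.12, Atp5g2 -0.022 and Uqcrc2 0.0012. With the replicate block they were Sdha 0.011, Uqcrq -0.021, Atp5a1 0.0035, Cox4i1 -0.058, Cox4i2 -0.44, Cox7a1 -0.38, Atp5g2 -0.016 and Uqcrc2 0.0019. Uqcrc2 was 0.0011 with median-of-ratios scaling and 0.0012 with DESeq2. Limma gave Cox4i1 -0.0015 and Cox4i2 -0.077 at a pseudocount of 1, and -0.0016 and -0.12 at 0.1. With no filter Sdha was 0.017, Atp5a1 0.012, Cox7a2 0.00047, Uqcrc2 0.027 and Atp5b 0.0089. At a minimum of 5 FPKM Sdhd was -0.012, Uqcrq -0.031, Cox4i1 -0.019, Cox8a -0.016 and Atp5g2 -0.025. Without KO replicates 2 and 3, Sdhb was 0.053, Uqcrh 0.13, Cox8b 0.82, Cox6a2 0.33, Cox6b1 0.048, Cox7a2 0.19 and Cox7b 0.081.

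With single libraries left out, the log2 difference ranged from -0.10 to 0.067 in Sdha, -0.22 to 0.028 in Sdhb, -0.021 to 0.13 in Sdhd, -0.17 to 0.23 in Uqcrq, -0.045 to 0.025 in Uqcrc2, -0.22 to 0.14 in Cox4i1, -1.08 to 0.39 in Cox4i2, -0.61 to 0.13 in Cox6a2, -0.21 to 0.0065 in Cox6b1, -0.89 to 0.57 in Cox7a1, -0.28 to 0.16 in Cox7a2, -0.32 to 0.055 in Cox7b, -0.050 to 0.12 in Cox8a, -4.04 to 2.06 in Cox8b, -0.038 to 0.071 in Atp5a1, -0.057 to 0.057 in Atp5b, -0.32 to 0.054 in Atp5g1 and -0.10 to 0.12 in Atp5g2. The cause of these changes was not tested. With 2 KO samples, differences within the 95% intervals given above remain compatible with the data. These intervals are per gene and unadjusted, so they set no limit of detection.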
